A study of Danio rerio with 4 samples.

Results

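The lysosome was examined through the genes for its proton pump, its proteases, its membrane proteins and a few of its best known hydrolases. Members were taken by symbol: every gene whose symbol begins with atp6v, atp6ap, cts or lamp, together with npc1, npc2, gba, gaa, hexa, hexb, psap, mcoln1a and mcoln1b. The rule found 52 of the 22044 genes in the table. Of these, 27 belong to the vacuolar proton pump (13 of the V1 sector, 9 of the V0 sector and 5 accessory), 14 are cathepsins (12 cysteine, 1 aspartic and 1 serine), 2 are LAMP genes, 2 encode mucolipin channels and 7 encode hydrolases or lipid-handling proteins. One further gene, written LAMP1 in capitals, was not counted. It had 210.2 and 147.5 normalised counts in Tg(ins:il1b) β-cells, against 214.9 and 299.1 in WT β-cells.

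RNA sequencing compared pancreatic β-cells of zebrafish that produce Interleukin-1β in those cells with β-cells of WT siblings, and had 2 libraries per genotype. In Tg(ins:il1b) animals the insulin promoter drives a shortened, mature form of zebrafish il1b carrying a FLAG tag, next to a lens marker, cryaa:mCherry, and the line descends from 1 founder. Fish of both genotypes carried Tg(ins:mKO), a fluorescent label driven by the insulin promoter, and were 3 months old. Cells were sorted by this label from islets dissected by hand, so a gate on insulin promoter activity defined the cells in both groups. Nothing in the sources tells if libraries of 1 genotype were made from different fish, different pools or repeats of the same RNA, and the spread behind each p-value may therefore be technical.

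The vacuolar ATPase is a rotary pump. Its cytosolic V1 sector hydrolyses ATP, and its membrane-embedded V0 sector carries protons into the lumen of lysosomes, endosomes and secretory granules. Acid pH activates the cathepsins and the glycosidases, NPC1 and NPC2 pass cholesterol out of the lumen, and mucolipin releases calcium from it. In β-cells the pump also acidifies the insulin granule, in which proinsulin is cut to insulin.

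The libraries held 28524617 and 28702122 reads in the Tg(ins:il1b) group, against 35073715 and 35637508 in the WT group. The transgene matched the labels: il1b took 2.04% and 1.38% of reads in the Tg(ins:il1b) libraries, against 3.4e-05% and 5.6e-06% in the WT libraries. β-cells were well represented, with ins at 11.7% and 9.56% of reads in Tg(ins:il1b) and 18.5% and 24.5% in WT. Other islet hormones were present as well. The α-cell gene gcga took 0.424% and 1.25% in Tg(ins:il1b), against 0.0239% and 0.0107% in WT, and the δ-cell gene sst1.1 took 0.157% and 3.51% in Tg(ins:il1b), against 0.286% and 0.00599% in WT. Both Tg(ins:il1b) libraries were above both WT libraries in gcga, while only Tg(ins:il1b) library 2 was so in sst1.1. Tg(ins:il1b) library 2 had the highest share of both genes. It also stood apart in leukocyte markers, whose values are given beside the cathepsins. Bulk values do not tell fewer cells of a type from less RNA per cell.

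The lysosomal genes were abundant in these cells, with a median of 2261 normalised counts against 210.2 for all genes tested, and 1 of them passed the test. Of the 52 genes, 50 passed the filter on low values, and atp6ap1la and ctslb did not. limma, a linear model on log2(normalised count + 1), called 1 of them higher in Tg(ins:il1b), ctsh, and 0 lower, with a Benjamini-Hochberg adjusted p under 0.05 over all genes tested. The same test called 1.1% of all 18504 genes higher and 0.53% lower. With unadjusted p-values under 0.05, limma placed 7 lysosomal genes (14%) higher, where 7.95% of all genes were, and 4 genes (8.0%) lower, where 6.45% were. Among genes with a mean of at least 1000 normalised counts, it placed 4 of 35 lysosomal genes higher and 3 lower. Of all 3591 genes that abundant, it placed 301 higher and 357 lower.

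Genes whose Tg(ins:il1b) and WT libraries did not overlap were counted next, and their share lay near that of all genes in both directions. Both Tg(ins:il1b) libraries exceeded both WT libraries for 14 lysosomal genes (28.0%), where the share of all genes was 22.3%, and both lay below for 9 (18.0%), where the share was 22.1%. For the other 27 the genotypes overlapped. On recovered whole reads edgeR called 0 lysosomal genes in either direction (0.903% of all genes higher, 0.373% lower). Its unadjusted p was under 0.05 for 7 lysosomal genes with higher and 3 with lower values, 10 of 50, and for 2592 of all 18504 genes in either direction. DESeq2 called 2 higher, ctsh and ctss2.2, and 0 lower (4.24% of 18625 genes higher, 2.45% lower).

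The median log2 fold change of the 50 genes was 0.12, and that of all genes tested was −0.01. A change smaller than 0.5 on the log2 scale was estimated for 35 of the 50 (70.0%), against 58.0% of all genes. Among the 35 lysosomal genes with a mean of at least 1000 normalised counts, 77.1% were within 0.5, against 74.7% of all 3591 genes that abundant.

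**Figure D1:**
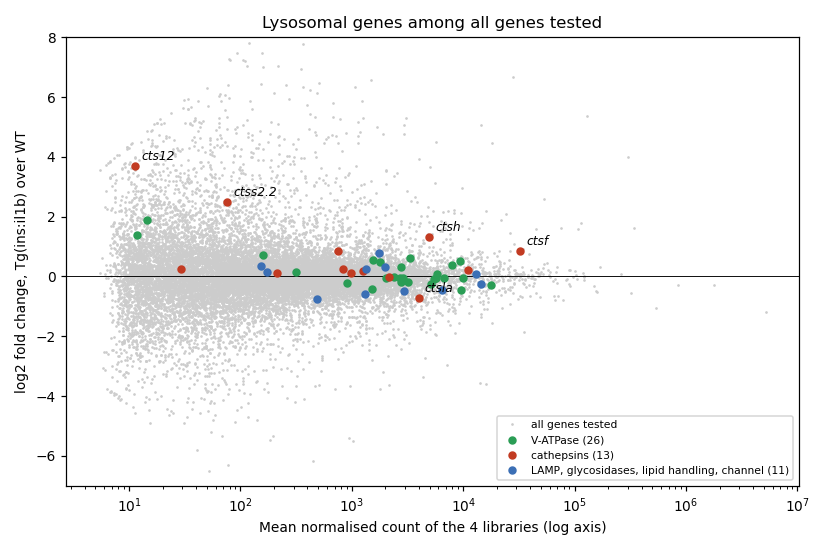
Log2 fold change (Tg(ins:il1b) over WT, on log2 of normalised count + 1) against the mean normalised count of the 4 libraries on a log axis, for all 18504 genes tested (grey; 10 points lie beyond the axis) and the lysosomal genes in 3 colours. V-ATPase genes with a mean of at least 100 normalised counts lie between −0.45 and 0.70, and ctsh (1.32) and ctsf (0.86) are farthest above 0 among the lysosomal genes with a mean of at least 1000.

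Cathepsins gave the single call. The 13 that were tested had a median log2 fold change of 0.24, with 11 estimates above 0 and 2 below. At an unadjusted p under 0.05, 5 were higher in Tg(ins:il1b) (ctsh, ctss2.1, cts12, ctsf and ctss2.2) and 1 was lower (ctsla). Of all genes, 7.95% were higher and 6.45% lower by that measure.

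ctsh encodes cathepsin H, a lysosomal aminopeptidase, and lies on chromosome 18 at 26437606 to 26444007 (GRCz10). It had 6335 and 7932 normalised counts in Tg(ins:il1b) β-cells, against 2810 and 2853 in WT β-cells. Both Tg(ins:il1b) libraries lay far above the WT pair, which nearly coincided. ctsh rose 2.50-fold (95% interval 1.78 to 3.51, n = 2 libraries per genotype), a log2 fold change of 1.32 with a standard error of 0.20 and a limma adjusted p of 0.0398. Per kilobase of gene length it was the 462nd and 385th most abundant gene in the Tg(ins:il1b) libraries, against 990th and 951st in the WT libraries.

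Whether ctsh was called depended on the tool. The adjusted p was 3.0e-05 in DESeq2 and 0.0539 in edgeR. Leaving out 1 library at a time kept the limma log2 fold change between 1.16 and 1.49 and that of DESeq2 between 1.17 and 1.49.

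ctsf was the most abundant cathepsin per kilobase. Cathepsin F is a cysteine protease, and its gene lies on chromosome 14 at 6834588 to 6858237. It had 49503 and 34398 normalised counts in Tg(ins:il1b) β-cells, against 28973 and 17895 in WT β-cells. All Tg(ins:il1b) values were above all WT values, but the lower Tg(ins:il1b) library was nearer to the higher WT library than the WT libraries were to each other. The ratio was 1.81 (95% interval 1.08 to 3.03), with a limma adjusted p of 0.274. Summed over the cathepsins, levels per kilobase were 29834 and 25139 in Tg(ins:il1b), against 21779 and 15803 in WT, and ctsf averaged 12496 per kilobase in Tg(ins:il1b) and 6981 in WT.

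Cathepsin L went the other way. ctsla, on chromosome 5, encodes an endopeptidase and had 3525 and 2527 normalised counts in Tg(ins:il1b) β-cells, against 5610 and 4273 in WT β-cells. It was the only cathepsin whose Tg(ins:il1b) libraries both lay below both WT libraries. The ratio was 0.610 (95% interval 0.400 to 0.929), and the limma adjusted p was 0.266.

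The cathepsin S genes sit beside cathepsin K. ctsk, ctss2.1 and ctss2.2 follow one another on chromosome 16, with 6583 bases between ctsk and ctss2.1 and 1038 bases between the 2 ctss genes. In mammals cathepsin S trims the invariant chain of MHC class II in antigen-presenting cells, and cathepsin K is the collagenase of osteoclasts. ctss2.1 had 961.1 and 956.4 normalised counts in Tg(ins:il1b), against 498.7 and 568.2 in WT, 0.85 ± 0.23 on the log2 scale (fold change ± standard error, adjusted p 0.167 in limma and 0.0577 in DESeq2). The 2 genotypes were well separated and the libraries within each were close. ctss2.2 was scarce and uneven, with 43.5 and 224.4 normalised counts in Tg(ins:il1b), against 10.1 and 28.0 in WT. Its log2 fold change was 2.48 (95% interval 0.24 to 4.72), with adjusted p-values of 0.296 in limma and 0.0423 in DESeq2. DESeq2 lost this call without Tg(ins:il1b) library 2 or without WT library 1. ctsk overlapped, with 18.2 and 43.8 normalised counts in Tg(ins:il1b) and 41.3 and 13.5 in WT.

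cts12 was close to silent in WT β-cells. It had 27 and 15 reads in the Tg(ins:il1b) libraries, against 0 and 2 in the WT libraries. The pooled ratio of Tg(ins:il1b) over WT, adjusted for depth, was 23.2 with an exact binomial interval of 6.03 to 198, which covers counting error only, and limma's adjusted p was 0.200.

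Other cathepsins did not separate the genotypes clearly. The aspartic protease cathepsin D, ctsd, was abundant, with 12142 and 11463 normalised counts in Tg(ins:il1b), against 12140 and 8567 in WT, and only WT library 2 stood low. The serine carboxypeptidase ctsa ranged over 3009 and 1374 in Tg(ins:il1b) and 2417 and 1795 in WT, so its libraries interleaved. ctsba (cathepsin B), ctsc, which activates granule proteases in mammals, and ctso overlapped too, with log2 fold changes of 0.11, 0.19 and 0.12. ctsz, a carboxypeptidase, had 880.3 and 943.6 normalised counts in Tg(ins:il1b), against 812.8 and 713.9 in WT, a small gap with a limma adjusted p of 0.699. ctslb fell under the filter, with at most 8.3 normalised counts in any library.

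Markers of other cells were read beside the cathepsins. Of 29 macrophage and leukocyte symbols, 28 were found and 23 were tested. limma called 0, edgeR called 0 and DESeq2 called 5 higher, where DESeq2 called 4.24% of all genes higher. An unadjusted limma p under 0.05 with higher values was found for 9, where 7.95% of all genes had one. Estimates were above 0 for 18 and below 0 for 5. Without overlap, 12 of the 23 were higher in Tg(ins:il1b) and 1 was lower, where 22.3% and 22.1% of all genes were. The lower one was rac2, at 400.2 and 317.4 in Tg(ins:il1b), against 406.0 and 434.1 in WT. The summed level of the 28 markers was 19537 and 59174 normalised counts in Tg(ins:il1b), against 4388 and 17570 in WT. Without cd74a and cd74b it was 1162 and 5769 in Tg(ins:il1b), against 723 and 1062 in WT. The defining macrophage gene mpeg1.1 had 0 and 20.3 normalised counts in Tg(ins:il1b), against 0 and 1.0 in WT, and the pan-leukocyte gene lcp1 had 0 and 56.6 in Tg(ins:il1b), against 0 and 3.9 in WT. ptprc, another pan-leukocyte gene, had 33.4 and 41.7 in Tg(ins:il1b), against 6.4 and 6.8 in WT, and so was high in both Tg(ins:il1b) libraries. The macrophage gene mfap4 had 22.2 and 162.4 in Tg(ins:il1b), against 1.8 and 0 in WT. csf1ra overlapped, with 11.1 and 23.5 in Tg(ins:il1b) and 26.6 and 11.6 in WT, and so did mpeg1.2, with 4.0 and 28.9 in Tg(ins:il1b) and 10.1 and 0 in WT. Of the 28 markers found, 15 were above both WT libraries in Tg(ins:il1b) library 1 and 24 were in Tg(ins:il1b) library 2. The share of all genes was not computed for counts by single library. Of 7 neutrophil symbols, 5 were found and 3 were tested, and limma called 0. The neutrophil gene npsn had 84.9 and 68.4 in Tg(ins:il1b), against 2.8 and 0 in WT (limma adjusted p = 0.0625). mmp9 had 66.7 and 313.1 in Tg(ins:il1b), against 59.7 and 28.9 in WT. nccrp1, the most abundant of them, overlapped, with 1550 and 2221 in Tg(ins:il1b) and 1784 and 1709 in WT. mpx and csf3r, which were not tested, stayed at or under 8.5 and 10.7 normalised counts in every library. The α-cell gene gcga had 122372 and 383327 normalised counts in Tg(ins:il1b), against 7690 and 3665 in WT, and rose (log2 fold change 5.35, limma adjusted p = 0.0184). Members listed as known to be abundant in macrophages were ctsh, ctss2.1, ctss2.2, ctsz, ctsk, ctsc, lamp1 and npc2. Without overlap, ctsh, ctss2.1, ctss2.2 and ctsz were higher in Tg(ins:il1b) and npc2 was lower, while ctsk, ctsc and lamp1 overlapped. The part of leukocytes, neutrophils or α-cells in the cathepsin differences was not tested.

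**Figure D2:**
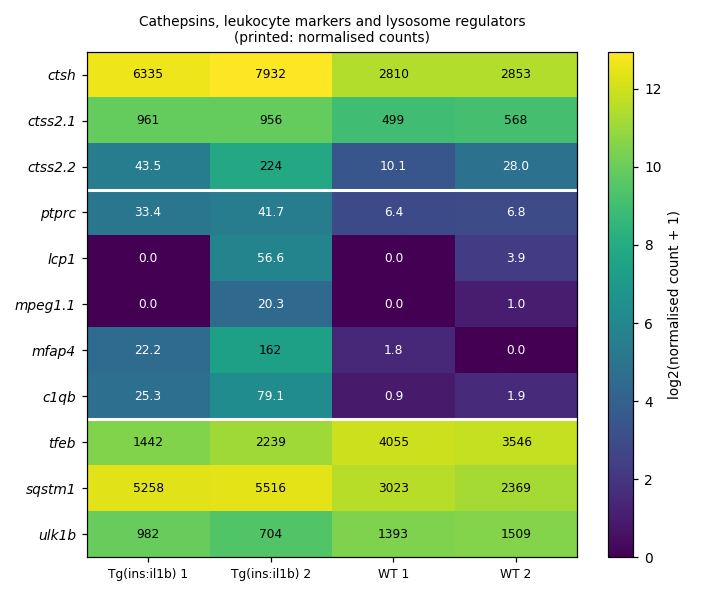
Log2 of normalised count + 1 (colour) with the normalised count printed, in the 2 Tg(ins:il1b) and 2 WT libraries, for 3 cathepsins (top), 5 leukocyte genes (middle) and 3 genes of lysosome control and autophagy (bottom); the rows were chosen after their values were seen. ctsh, ctss2.1, ctss2.2, ptprc, mfap4 and c1qb are above both WT libraries in each Tg(ins:il1b) library, and lcp1 and mpeg1.1 are so in Tg(ins:il1b) library 2 but are at 0 in library 1.

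The proton pump showed no called change. Of the 27 V-ATPase genes, 26 were tested, and limma, edgeR and DESeq2 called 0 in either direction. An unadjusted limma p under 0.05 was found for 2 with higher values (atp6v1c1b and atp6v0cb) and 0 with lower values. The shares of all genes were 7.95% and 6.45%. The median log2 fold change was −0.04, at −0.02 in the V1 sector and −0.06 in the V0 sector. The genotypes overlapped for 16 of the 26 genes, 6 were higher without overlap and 4 were lower. Among all genes, 22.3% were higher and 22.1% lower without overlap. Summed per kilobase, V-ATPase levels were 67986 and 58884 in Tg(ins:il1b), against 66886 and 64676 in WT, so both WT values fell between the Tg(ins:il1b) values.

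Intervals of the pump genes rest on 2 libraries per genotype, whose spread may be technical, and on the variance trend of limma. For the 24 with a mean of at least 100 normalised counts, log2 fold changes ran between −0.45 and 0.70 with a median standard error of 0.22. The 95% interval stayed within a 2-fold change either way for 19 of them and included 0 for 22. Its lowest bound among the 24 was 0.446-fold and its highest 3.67-fold.

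**Figure D3:**
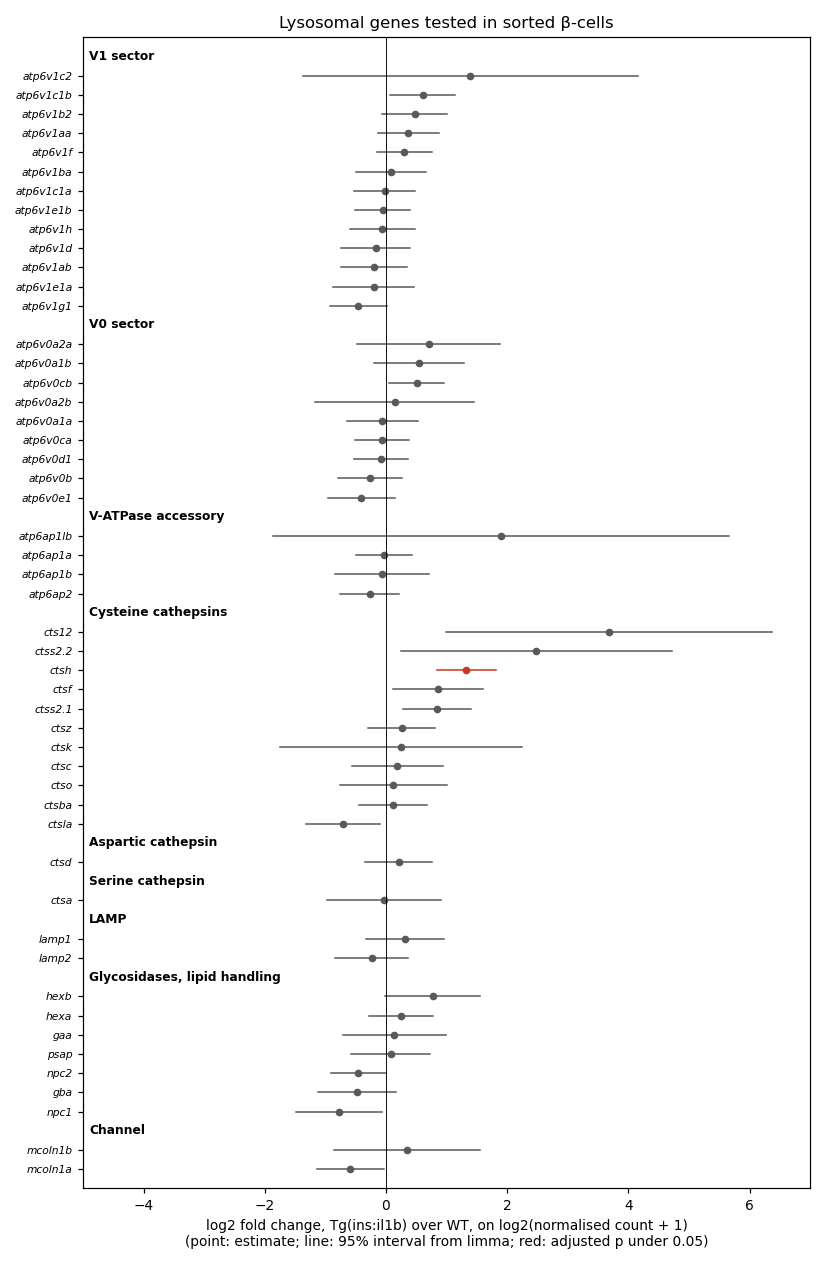
Log2 fold change of each of the 50 tested genes, Tg(ins:il1b) over WT (point), with its 95% interval from limma (line), grouped by role; red marks an adjusted p under 0.05. ctsh alone is red, and 22 of 24 V-ATPase genes with a mean of at least 100 normalised counts have an interval that includes 0.

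In the V1 sector, atp6v1c1b was farthest above WT among the abundant subunits. Subunit C governs the joining of V1 to V0, and atp6v1c1b had 4437 and 3572 normalised counts in Tg(ins:il1b), against 2912 and 2347 in WT (log2 fold change 0.61, standard error 0.22, limma adjusted p = 0.283). atp6v1g1, a peripheral stalk subunit, was farthest below, with 8987 and 7340 in Tg(ins:il1b), against 11262 and 10992 in WT (log2 fold change −0.45, standard error 0.20, limma adjusted p = 0.362). Neither gene overlapped between genotypes, and neither passed the test.

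Some copies of the ATP-binding subunits lay above WT without overlap, and none passed the test. Copies were not tested against one another. atp6v1aa, a catalytic A subunit, had 10149 and 7791 normalised counts in Tg(ins:il1b), against 6942 and 6806 in WT (limma adjusted p = 0.494). atp6v1b2, a B subunit, had 1934 and 2236 in Tg(ins:il1b), against 1669 and 1339 in WT (limma adjusted p = 0.403). Their paralogues atp6v1ab and atp6v1ba overlapped, with log2 fold changes of −0.20 and 0.09. The rotor subunit atp6v1f had 2958 and 3147 in Tg(ins:il1b), against 2409 and 2531 in WT, without overlap (limma adjusted p = 0.546). The stalk subunit atp6v1e1b, the most abundant V1 gene per kilobase after atp6v1g1, overlapped, with 10519 and 9243 in Tg(ins:il1b) and 9792 and 10644 in WT. atp6v1c2, a form with little expression here, had at most 25.6 normalised counts in any library.

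In the V0 sector, atp6v0cb, a subunit of the proteolipid ring, had 11248 and 10594 normalised counts in Tg(ins:il1b), against 8140 and 7275 in WT, a log2 difference of 0.50 (standard error 0.19, limma adjusted p = 0.285). Its paralogue atp6v0ca had 6342 and 6855 in Tg(ins:il1b) and 6588 and 7184 in WT, with overlap. The a subunits carry the proton path and differ by compartment: atp6v0a1b had 1974 and 1669 in Tg(ins:il1b), against 1633 and 946.4 in WT (limma adjusted p = 0.494), and atp6v0a2a had 147.6 and 243.6 in Tg(ins:il1b), against 82.7 and 163.0 in WT, with overlap. The small subunit atp6v0e1 lay below WT without overlap, at 1506 and 1148 in Tg(ins:il1b), against 1785 and 1699 in WT (log2 fold change −0.41, limma adjusted p = 0.499).

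The accessory protein atp6ap2, the prorenin receptor, was the most abundant of the accessory genes per kilobase. It had 17763 and 14789 normalised counts in Tg(ins:il1b), against 18579 and 20572 in WT, a log2 fold change of −0.27 (limma adjusted p = 0.627). The 2 Ac45 genes, whose protein guides the pump through the secretory pathway, overlapped. atp6ap1a had 2777 and 2912 in Tg(ins:il1b) and 2771 and 3064 in WT, and atp6ap1b had 2598 and 1437 in Tg(ins:il1b) and 2274 and 1788 in WT. atp6ap1lb and atp6ap1la stayed at or under 23.5 normalised counts in every library.

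Because the zebrafish genome holds duplicates of many subunits, levels per kilobase were also summed over members at each of 13 pump positions. The sums left out tcirg1a, tcirg1b and rnasekb, pump genes whose symbols do not meet the rule. tcirg1a had 91.0 and 132.5 normalised counts in Tg(ins:il1b), against 192.0 and 243.1 in WT, while tcirg1b and rnasekb overlapped. The 2 genotypes overlapped at 7 positions, 3 were higher in Tg(ins:il1b) (C, F and c) and 3 were lower (G, d and e). Ratios of the means ran between 0.734 at position G and 1.27 at position C. The share of a copy in its pair did not overlap between genotypes in 5 of 8 paralogue pairs, counting both directions. Each of these 5 pairs holds a copy already counted as higher without overlap: atp6v1aa, atp6v1b2, atp6v1c1b, atp6v0a1b or atp6v0cb. The shares largely restate the levels of those genes and are not a separate result. Among the levels of single genes, 22.3% were higher and 22.1% lower without overlap, and 10286 of 18504 overlapped. Shares of pairs were not computed over all genes, so the 5 pairs have no like background. The share of atp6v1c1b in its pair with atp6v1c1a was 62.9% and 61.4% in Tg(ins:il1b), against 52.2% and 50.8% in WT, and that of atp6v0cb in its pair with atp6v0ca was 62.3% and 59.0% in Tg(ins:il1b), against 53.5% and 48.5% in WT. atp6v0a1b made up 46.2% and 44.0% of its pair with atp6v0a1a in Tg(ins:il1b), against 37.0% and 33.2% in WT. atp6v1aa made up 77.7% and 71.3% of its pair with atp6v1ab in Tg(ins:il1b), against 63.2% and 69.7% in WT. For the B subunit, atp6v1ba took 76.9% and 67.7% of its pair with atp6v1b2 in Tg(ins:il1b), against 77.7% and 77.4% in WT. An exact two-sided permutation test of 2 against 2 libraries cannot go below 0.333, and no p is given for the shares. Reads of near-identical copies may have been split between them by the counting.

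**Figure D4:**
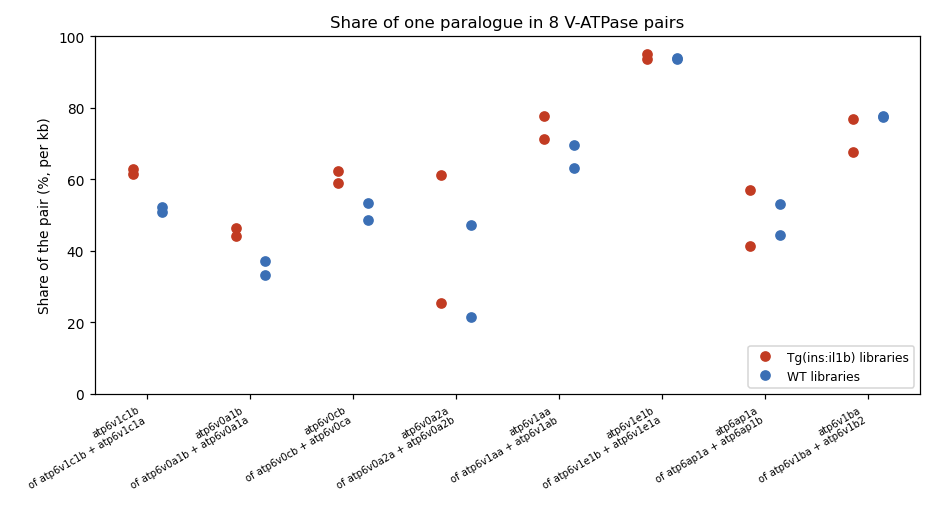
Share of the first-named copy in the summed level per kilobase of its pair (%), for 8 V-ATPase paralogue pairs; red points are the 2 Tg(ins:il1b) libraries and blue points the 2 WT libraries. For atp6v1c1b, atp6v0a1b, atp6v0cb and atp6v1aa both red points lie above both blue points. The level of each of these genes was itself higher without overlap.

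The remaining genes of the set covered cholesterol export, calcium release, glycosidases and the membrane coat. limma, edgeR and DESeq2 each called 0 of these 11 genes. An unadjusted limma p under 0.05 was found for 3 with lower values and 0 with higher values, where the shares of all genes were 6.45% and 7.95%. Without overlap, 2 of the 11 were higher (hexa and hexb) and 4 were lower (npc1, npc2, mcoln1a and gba). Of all genes, 22.3% were higher and 22.1% lower without overlap.

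Both cholesterol exporters were below WT. npc1, the membrane transporter, had 324.4 and 398.6 normalised counts in Tg(ins:il1b), against 521.7 and 720.7 in WT (log2 fold change −0.77, standard error 0.29, limma adjusted p = 0.306). npc2, its soluble partner, had 5172 and 5696 in Tg(ins:il1b), against 7061 and 7838 in WT (log2 fold change −0.45, standard error 0.19, limma adjusted p = 0.343). mcoln1a, a mucolipin calcium channel, had 996.5 and 1116 in Tg(ins:il1b), against 1766 and 1422 in WT (log2 fold change −0.59, limma adjusted p = 0.310). For all 3 genes every Tg(ins:il1b) library lay below every WT library, and none passed the test. The second mucolipin gene, mcoln1b, had 233.5 and 115.4 in Tg(ins:il1b) and 169.0 and 98.4 in WT, with overlap.

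Among the glycosidases, the hexosaminidase subunits and glucocerebrosidase leaned in opposite directions. hexb had 2449 and 1915 normalised counts in Tg(ins:il1b), against 1707 and 941.6 in WT (log2 fold change 0.77, standard error 0.33, limma adjusted p = 0.354), and hexa had 1524 and 1421 in Tg(ins:il1b), against 1357 and 1121 in WT (log2 fold change 0.26, limma adjusted p = 0.689). gba, which splits glucosylceramide, had 2791 and 2057 in Tg(ins:il1b), against 4018 and 2799 in WT (log2 fold change −0.48, limma adjusted p = 0.485). psap, the precursor of the saposins that help these enzymes, overlapped at 16091 and 10882 in Tg(ins:il1b) and 14730 and 10695 in WT. gaa, the lysosomal glucosidase of glycogen, overlapped as well.

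The LAMP genes encode the heavily glycosylated coat of the lysosomal membrane. lamp2 had 12298 and 13925 normalised counts in Tg(ins:il1b), and 18971 and 12532 in WT, and lamp1 had 2191 and 2132 in Tg(ins:il1b), and 2182 and 1393 in WT. Both overlapped, with log2 fold changes of −0.24 and 0.31. The share of lamp2 in the level per kilobase of the pair was 80.2% and 82.5% in Tg(ins:il1b), against 86.2% and 86.6% in WT. The gene written LAMP1 in capitals was left out of this pair, and shares of pairs were not computed over all genes.

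**Figure D5:**
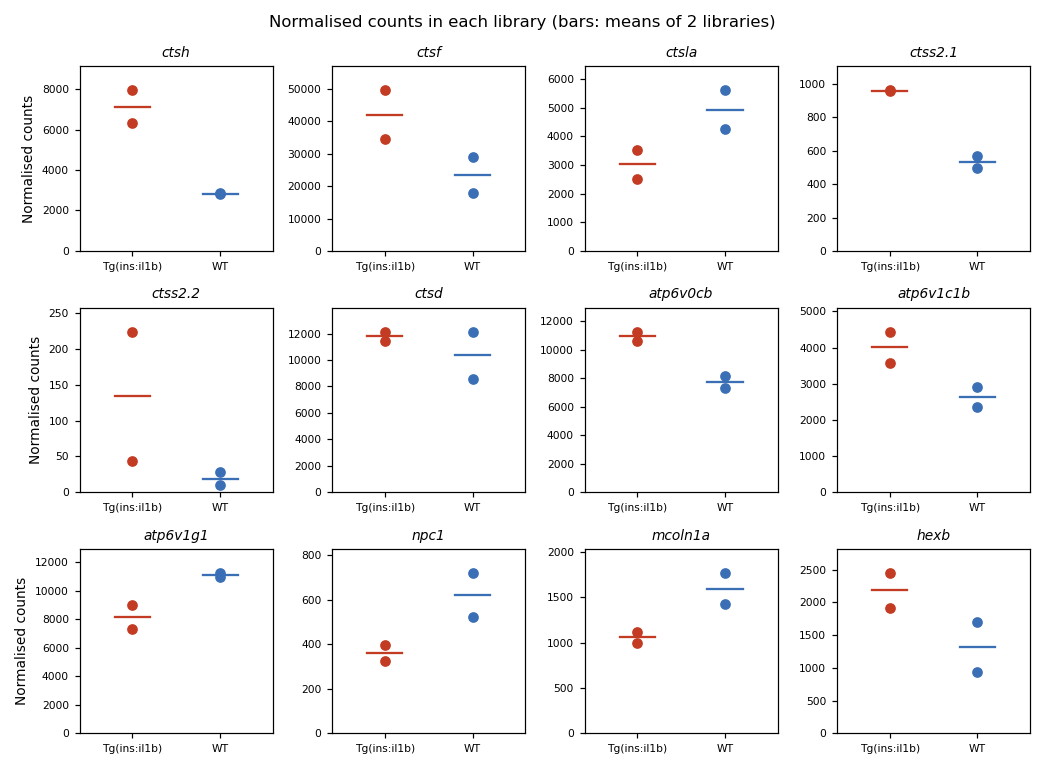
Normalised counts of 12 lysosomal genes in the 2 Tg(ins:il1b) libraries (red) and the 2 WT libraries (blue), each axis starting at 0; bars are means of 2 libraries. The 12 genes were picked by hand, so their overlap does not stand for the set. The genotypes overlap for ctsd and for none of the other 11 genes shown, but for 27 of all 50 tested lysosomal genes. Among all genes, 22.3% are higher and 22.1% lower without overlap. ctss2.2 has the most unequal pair of Tg(ins:il1b) libraries, at 43.5 and 224.4 normalised counts.

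Beyond the set, 114 other symbols of lysosome and autophagy were looked up and 101 were tested. limma called 0 of them, as did edgeR. An unadjusted limma p under 0.05 was found for 7 with higher and 9 with lower values in Tg(ins:il1b). The shares of all genes were 7.95% and 6.45%. Their median log2 fold change was −0.07. DESeq2 called 1 higher, sqstm1, which encodes the autophagy receptor p62, and 1 lower, tfeb, which encodes a transcription factor that activates lysosomal genes. Of all genes, DESeq2 called 4.24% higher and 2.45% lower. sqstm1 had 5258 and 5516 normalised counts in Tg(ins:il1b), against 3023 and 2369 in WT (log2 fold change 1.01, adjusted p 0.0859 in limma and 0.00608 in DESeq2). tfeb had 1442 and 2239 in Tg(ins:il1b), against 4055 and 3546 in WT (log2 fold change −1.08, adjusted p 0.131 in limma and 0.0231 in DESeq2). Neither gene overlapped between genotypes. The related gene tfe3a leaned the other way without overlap, with 566.0 and 413.6 in Tg(ins:il1b), against 298.5 and 268.2 in WT. Its log2 fold change was 0.77 (limma adjusted p = 0.309), and tfe3b overlapped.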

How the data were processed

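RNA of sorted β-cells was sequenced in 2 Tg(ins:il1b) and 2 WT libraries. The authors aligned the reads with GSNAP to GRCz10 with Ensembl 87 genes, and deposited a signal of normalised counts per gene in each library. The counting tool, its strand setting and the scaling tool were not given in the sources used here, and antisense reads cannot be told apart. The lowest row sum was 10.1. Values are whole multiples of 1 read (at least 99.99% of values above 0 within 0.1 of a whole read), and reads were recovered from these steps. The scaling of each library recovered in this way differed from that of DESeq2 by at most 7.14e-06%.

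limma 3.58.1 (R 4.3.3) with a variance trend was run on log2(normalised count + 1) over the 18504 genes that reached 10 normalised counts in 2 or more libraries, with Benjamini-Hochberg adjustment over all of them. The pseudocount makes fold changes of low genes too small. edgeR 4.0.16 and DESeq2 1.42.0 were run on the reads as alternatives, beside other pseudocounts, filters, TMM scaling, a replicate block and leaving out each library. The fit was tested on simulated data. Levels between genes were compared per kilobase of the deposited gene length. Members and gene lists were chosen with earlier results of these data known. Values in every library are given for members called by limma, for the 2 most abundant of each role and for the 2 with the largest absolute log2 fold change at a mean of at least 100, and for those called by another tool only; some further members were added after their values were seen.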

Additional observations from a re-analysis of the deposited data

How the results depend on the processing

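The number of lysosomal genes called higher was 1 (ctsh) with limma, and also with pseudocounts of 0.5 and 5, no filter, a filter of 50 and TMM scaling. It was 0 without the variance trend and with edgeR, and 2 with DESeq2. A fit that left out 1 library assumed that the genotype with 1 library varied like the other. Only effect sizes of those fits are given, and DESeq2 was run this way after the data were seen. The number called lower was 0 in each fit with all 4 libraries. For ctsh the adjusted p was 0.203 without the trend. Without the trend limma called 13 genes in all, against 302 with it, edgeR 236 and DESeq2 1245. The median log2 fold change of the cathepsins was 0.24, and 0.17 to 0.57 without 1 library; that of the V-ATPase was −0.04, and −0.13 to 0.11, changing sign. The deviations of same-numbered libraries had a correlation of 0.0334 over all genes and 0.164 over the lysosomal genes, and with 2 pairs and no label that ties them the numbers were not taken to pair the libraries; a fit with the replicate block called 437 genes, and 1 lysosomal gene higher (ctsh, adjusted p = 0.0333).

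Of the 50 tested genes, 24 changed sign when 1 library was left out, and 0 of these were called. Those among the genes that the stated rule names were psap (−0.21 to 0.36), lamp2 (−0.54 to 0.0624), atp6v1e1b (−0.14 to 0.0431), atp6ap1b (−0.49 to 0.37), atp6ap1a (−0.11 to 0.0375), ctsd (−0.0413 to 0.46), atp6v0ca (−0.12 to 0.0012), mcoln1b (−0.16 to 0.85), lamp1 (−0.0139 to 0.63) and ctsa (−0.60 to 0.53). ctsa also changed sign in edgeR (0.0644) and DESeq2 (0.0572). Depth and 2 libraries per genotype limited scarce genes most: the 95% interval of ctsk ran over log2 fold changes of −1.76 to 2.24.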

Other observations

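Within each genotype, lysosomal genes tended to be lower in the library numbered 2. WT library 2 was below WT library 1 for 35 of the 50 tested genes (70.0%), against 48.8% of all genes, with a median difference of −0.29 on the log2 scale. Tg(ins:il1b) library 2 was below Tg(ins:il1b) library 1 for 31 of 50 (62.0%), against 48.7% of all genes, with a median difference of −0.10. Among autophagy genes outside the set, ulk1b, named after its values were seen and a kinase that starts autophagosome formation, had 982 and 704 normalised counts in Tg(ins:il1b), against 1393 and 1509 in WT.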
